A study of Mus musculus with 2 samples.

Results

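Core genes of the machinery that builds autophagosomes were followed by their polysome association in mouse fibroblasts with and without endoplasmic reticulum (ER) stress. The 10 genes were Map1lc3a, Map1lc3b, Gabarap, Gabarapl1, Gabarapl2, Atg12, Atg5, Atg7, Sqstm1 and Ulk1, and they were taken by gene name alone, as all non-control spots carrying one of these names on both arrays. They had 17 probes, out of 41141 probes and 28080 gene names in all. Of these, 15 probes of 9 genes passed the filter on signal given below, and they were set beside the 10276 genes with a RefSeq mRNA accession (prefix NM) that passed it.

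The cells were NIH3T3, an established line of mouse embryonic fibroblasts, grown on plates with 10% serum. The control cells received no thapsigargin, and the stressed cells received 10 µM thapsigargin, which blocks the ER calcium pump, for 3 h. Shortly before lysis, cells were incubated with cycloheximide, which the methods state was used to freeze the polysomes. Lysates were separated on a sucrose gradient of 10 to 40%, and polysome-bound RNA (P, labelled with Cy3) was hybridised together with the free and monosomal RNA (FM, labelled with Cy5) on 1 array per condition. Each array carried RNA pooled from 3 preparations of this line. No difference between the conditions therefore has a replicate check, no test was made, and every value below describes this pair of arrays.

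Autophagy encloses cytoplasm in a membrane sac that closes and fuses with the lysosome. The Ulk1 kinase starts the process, and Atg7 activates ubiquitin-like proteins, which are either joined to Atg5 (Atg12) or to the lipid phosphatidylethanolamine of the growing membrane (the LC3 and GABARAP proteins). Sqstm1, also called p62, binds ubiquitinated cargo and LC3 and is itself degraded in the process. ER stress lowers translation initiation through phosphorylation of eIF2α, and several autophagy genes are known targets of the stress factors Atf4 and Chop.

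Polysome association is given as log2 P/FM, that is log2 of the polysome signal divided by the free and monosome signal, where 0 means equal signals and 1 means a polysome signal 2-fold higher. Signal strength is given as A, which averages the log2 signal over the channels, and probes with A above 4.5 on both arrays were kept. All changes are thapsigargin minus control. Between spots of the same probe the median standard deviation (SD) of the change in log2 P/FM was 0.10 (118 probes), and between probes of the same gene it was 0.36 (3978 genes). These spreads cover array error and leave out the spread between cultures. The total RNA labelled was kept at 300 ng per condition, so A is relative to a fixed amount of RNA. As a mean of log2 signals, A is not the log of their sum. It can also move when RNA shifts between the fractions. Fewer cells and less RNA per cell cannot be told apart from A, and neither is measured by it.

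All genes together moved between the arrays, and the values of the autophagy genes were read against that shift. The median of the 10276 genes went from 0.31 in control to -0.30 in stressed cells, with a median change of -0.69, and 69.6% of the genes were lower. The 10 spike-in probes, for added RNAs foreign to the cells, changed by -2.45 in median, from -2.70 to -2.16. Scaling to these probes subtracted their median signal in each channel of each array, so its shift is not exactly the -2.45 above. It turned the median change of all genes to 1.62, so a direction relative to 0 depends on the scaling. A difference from the median of all genes is the same under this scaling. The methods state that P and FM RNA were labelled in the proportions in which they were recovered from the gradient, so the unscaled ratio is not a ratio per equal amount of P and FM RNA. Per the methods, polysome RNA outweighed free and monosomal RNA in control cells, the reverse held under stress, and labelling kept these proportions. Their part in the change of the spike-in probes was not tested. The step at which the spike-in RNA was added is not given in the sources used here. All 7 fibroblast markers examined passed the filter. Of 11 markers of epithelial, blood, endothelial, muscle and neuronal cells, 1 (Cd68) passed it.

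The autophagy mRNAs had a lower polysome ratio in stressed than in control cells on the unscaled arrays. In control 8 of the 9 genes lay above 0, where 61.8% of all genes did. In stressed cells 6 of the 9 lay below 0, close to the 62.5% of all genes. With spike-in scaling none of the 9 lay below 0 in stressed cells. The median log2 P/FM of the 9 genes was 1.06 in control and -0.55 in stressed cells, against 0.31 and -0.30 for all genes. All 9 were lower in stressed cells, where 69.6% of all genes were. Their median change was -1.37, or -0.68 relative to the median of all genes. With spike-in scaling all 9 were higher, where the median change of all genes was 1.62. The difference from that median was the same. A total of 6 genes, namely Map1lc3a, Map1lc3b, Gabarap, Gabarapl1, Atg5 and Atg7, were lower by 1 or more, where 40.2% of all genes were. None was higher by 1 or more, against a background of 11.2%. The 3 smallest changes were those of Ulk1, Sqstm1 and Atg12, and Sqstm1 stayed well above 0 on both arrays.

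**Figure D1:**
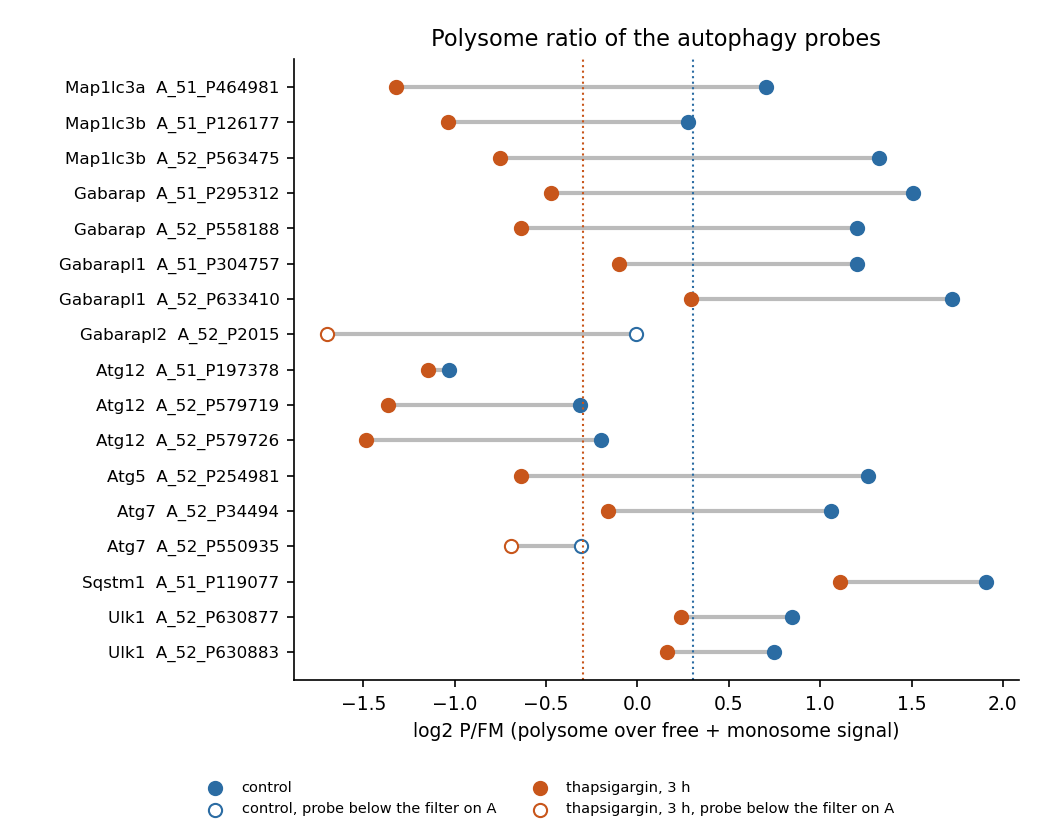
Log2 P/FM of each of the 17 autophagy probes (rows) in control (blue) and thapsigargin-treated cells (orange), with grey lines joining both values and dotted lines at the medians of all genes, 0.31 and -0.30. Open circles are the 2 probes below the filter. The control value of the filled Atg7 probe rests on a free and monosome signal not well above background. Every probe was lower under thapsigargin on this scale, by the least for 1 Atg12 probe, and the Sqstm1 probe stayed at 1.11. Scaling to the spike-in probes shifts all blue points to the right by a common amount. It shifts all orange points to the right by a larger common amount. The medians of the 9 genes are then 2.08 in control and 2.78 in stressed cells.

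Probes of the GABARAP branch are shown here because the paralogs are alike in sequence and yet are compared with each other below, together with a Map1lc3b and an Atg7 probe whose values are singled out. Capitals mark the bases that the Gabarapl1 and the second Gabarap probe share when aligned, which are 43 of the 55 aligned bases (78.2%). No other pair of the probes compared shared more than 26 bases, and the Atg12 probes were left out of the comparison. All are 60 bases long, as given in the array files, 5′ to 3′.
Gabarapl1, A_51_P304757: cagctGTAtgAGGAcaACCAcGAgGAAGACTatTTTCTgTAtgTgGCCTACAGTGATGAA
Gabarap, A_52_P558188: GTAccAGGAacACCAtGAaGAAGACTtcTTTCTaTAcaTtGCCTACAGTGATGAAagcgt
Gabarap, A_51_P295312: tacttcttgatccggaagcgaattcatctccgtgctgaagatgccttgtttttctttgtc
Map1lc3b, A_52_P563475: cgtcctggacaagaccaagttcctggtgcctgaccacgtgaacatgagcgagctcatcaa
Atg7, A_52_P34494: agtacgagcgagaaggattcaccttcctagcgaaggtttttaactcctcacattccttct

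The LC3 branch was measured through 3 probes of Map1lc3a and Map1lc3b, whose proteins coat the growing autophagosome membrane. Map1lc3a (NM_025735, probe at chr2:155103435-155103494, mm9) had log2 P/FM of 0.70 in control and -1.32 in stressed cells. The change of -2.03 was the lowest of all 9 genes and was -1.34 relative to the median of all genes, at percentile 12.9. Its polysome signal went from 661 to 247, while its free and monosome signal went from 406 to 619. Map1lc3a also had the lowest change in A of the 9 genes, -0.40, where the median of all genes was 0.38.

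Map1lc3b (NM_026160) had a pair of probes on chromosome 8 that differed in size but not in direction. The probe at chr8:124121771-124121830 went from 0.28 to -1.04, a change of -1.31. The probe at chr8:124119924-124119983, printed above, went from 1.32 to -0.75, a change of -2.07. The gene mean was 0.80 in control and -0.89 in stressed cells, with a change of -1.69 ± 0.54 (SD of 2 probes), and the probes thus disagreed more in control than under stress. The SD of 0.54 exceeded the typical 0.36 between probes of a gene.

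The GABARAP branch encodes relatives of LC3 that act later in the closure of the sac. The Gabarap (NM_019749) probe at chr11:69806095-69806154 went from 1.51 to -0.47, and that at chr11:69806196-69806255 from 1.20 to -0.64. The gene change was -1.91 ± 0.10 (SD of 2 probes). Gabarapl1 (NM_020590) went from 1.20 to -0.10 with the probe that spans chr6:129488695-129491167, and from 1.72 to 0.29 with that at chr6:129492254-129492313. Its change was -1.37 ± 0.088 (SD of 2 probes), so the change of Gabarap was lower than that of Gabarapl1 by more than the spread between probes of either. That gap was absent with the processed signals of the scanner software, at -0.46 for Gabarap and -0.47 for Gabarapl1, and smaller after loess, at -0.41 and -0.29. The Gabarapl1 probe that spans 2473 bases is the one alike to a Gabarap probe, and it had a change of -1.30. The other Gabarapl1 probe had a change of -1.43. Gabarapl2 could not be judged. Its single probe by name, for the cDNA clone AK049819 at chr8:114478650-114478709, had A of 4.13 and 4.44, below the filter, and on neither array was its polysome signal well above background.

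The conjugation genes Atg12, Atg5 and Atg7 differed from each other in control. Atg5, which carries Atg12 and helps place LC3 on the membrane, went from 1.26 to -0.64 (NM_053069, chr10:44083320-44083379), a change of -1.90. The polysome signal of Atg5 was 319 in control and 300 in stressed cells, whereas its free and monosome signal went from 133 to 467, 3.50-fold higher. On the unscaled arrays, the lower ratio of Atg5 thus came with more free and monosome signal and a similar polysome signal. Its free and monosome increase was the largest of the 9 genes.

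Atg12, the ubiquitin-like partner of Atg5, was the only one of the 9 below 0 in control cells, at -0.52, and it was -1.33 in stressed cells. Its 3 probes (NM_026217) gave changes of -0.11, -1.05 and -1.28, a mean of -0.82 ± 0.62 (SD of 3 probes). The probe with the smallest change was the one that lay lowest in control, at -1.03, and the 3 probes were closer together under stress, from -1.48 to -1.14. Both signals of Atg12 were higher under stress, by 0.41 on the log2 scale for P and by 1.23 for FM. A of Atg12 was higher by 0.82, at percentile 80.3 of all genes.

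Atg7, the activating enzyme of both conjugation reactions, was dim. Its probe for NM_028835 (chr6:114726985-114727044), printed above, had a control free and monosome signal that was not well above background. Its measured control log2 P/FM of 1.06 is therefore uncertain. In stressed cells it was -0.16, a measured change of -1.22. Without background subtraction the change was -0.32. The second Atg7 probe, for the cDNA clone AK076330 at chr6:114635422-114635481, did not pass the filter and was not well above background in either channel. Atg7 is also the member whose direction turned with normexp background correction, to 0.34.

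Sqstm1, the cargo receptor, kept the highest polysome association of the 9 genes on both arrays. Its probe (NM_011018, chr11:50013670-50013729) had log2 P/FM of 1.91 in control and 1.11 in stressed cells, at percentiles 95.8 and 93.9 of all genes. Its polysome signal went from 10486 to 17627 and its free and monosome signal from 2799 to 8185. Sqstm1 was thus higher in both fractions, and its A was higher by 1.15, the only one of the 9 past 1, where 11.8% of all genes were. None of the 9 had A lower by 1 or more, against 0.691% of all genes. The change in log2 P/FM of Sqstm1 was -0.799 and did not hold its direction: it was 1.01 with the signals or the log ratio processed by the scanner software and 1.00 after loess normalization.

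Ulk1, the initiating kinase, had the smallest change. The probe at chr5:111213515-111213574 (NM_009469) went from 0.84 to 0.24, and that at chr5:111213787-111213846 from 0.74 to 0.16. The gene change was -0.60 ± 0.016 (SD of 2 probes), 0.091 above the median of all genes, and its percentile among all genes was 69.1 in control and 69.9 in stressed cells. Ulk1 therefore kept its place among all genes while its ratio was lower on the unscaled arrays; the change was above 0 with processed signals (0.034), loess (0.12) and centring (0.0088), as with spike-in scaling (1.71). Its polysome signal was 1.06-fold and its free and monosome signal 1.61-fold that of control cells.

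The classes that the study defined sort the 9 genes as follows. Sensitive mRNAs are those lower by 0.8 or more, and 7 of the 9 met this, namely the 6 named above and Atg12, where 46.4% of all genes did. This count was 0 under spike-in scaling, where 1.20% of all genes were sensitive, and 4 with centred arrays, where 27.9% were. It was 3 with loess and 3 with processed signals, where 27.4% and 34.5% of all genes were. It was 5 with normexp and 5 without background subtraction, where 12.5% and 19.1% of 18181 genes were. Atg12, at -0.82, lay just inside this threshold and Sqstm1, at -0.799, just outside it, a gap of 0.017 that is far below the spread between probes. Resistant mRNAs reach 0.8 or more on each array, which 1 of the 9 (Sqstm1) and 3.06% of all genes met; with spike-in scaling 8 of the 9 and 69.4% of all genes did. None was inducible, that is at or below 0 in control and higher by 1 or more, against 9.9% of all genes; Atg12 was the only one of the 9 that started at or below 0.

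The signals of each fraction were also compared between the unscaled arrays, and their direction depends on the scaling. The free and monosome signal was higher in all 9 genes and in 85.8% of all genes. It rose by 0.61 (Map1lc3a) to 1.81 (Atg5) on the log2 scale, against a median of 0.71 for all genes. It was higher by 1 or more in 4 of them (Gabarap, Atg12, Atg5 and Sqstm1) and in 31.9% of all genes. The polysome signal was above control in 3 of the 9 (Atg12, Sqstm1 and Ulk1) and in 51.6% of all genes. It was lower in the other 6, from -0.091 (Atg5) to -1.42 (Map1lc3a), where the median of all genes was 0.036. Relative to the medians of all genes, 7 of the 9 lay above in FM and 3 above in P. With spike-in scaling the polysome signal was above control in all 9 and the free and monosome signal in 4. The median changes of all genes were then 1.46 for P and -0.17 for FM. The counts relative to the medians of all genes were the same.

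**Figure D2:**
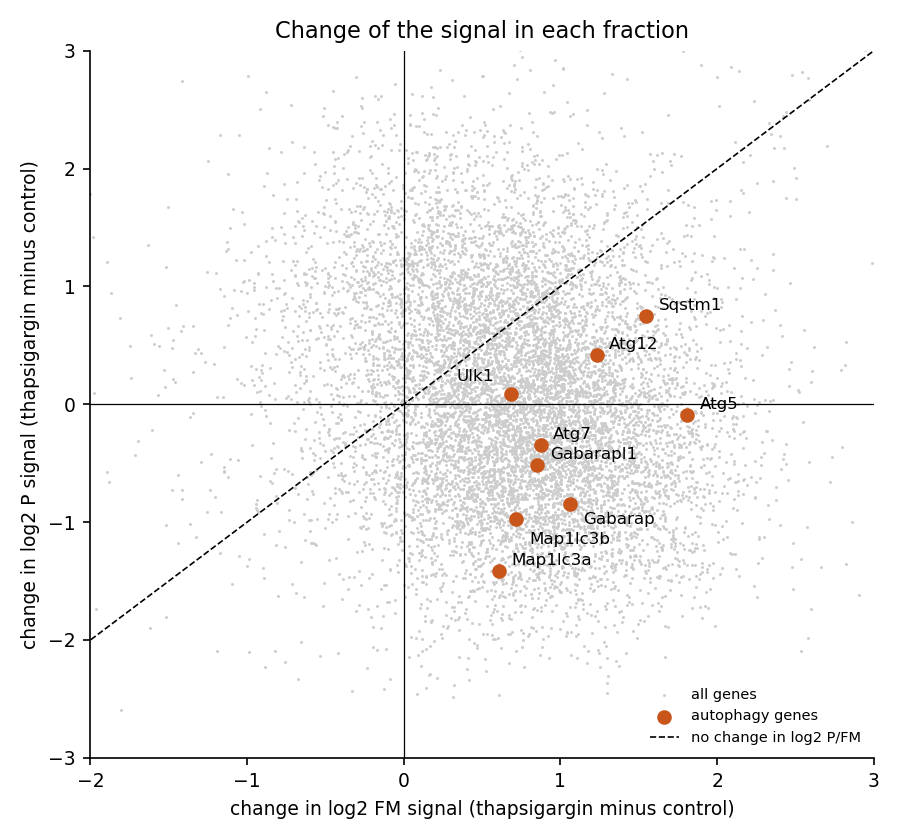
Change in the log2 polysome signal (vertical axis) against change in the log2 free and monosome signal (horizontal axis), thapsigargin minus control, for all 10276 genes (grey, points beyond the axes not drawn) and the 9 autophagy genes (orange). All 9 lie to the right of 0 and below the dashed line of equal change, with Sqstm1, Atg12 and Ulk1 above 0 on the vertical axis. Of all genes, 85.8% lie to the right of 0 and 69.6% below the dashed line. With spike-in scaling all points shift together, and all 9 genes then lie above the line.

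Across the array the median change in log2 P/FM was lower for brighter genes above a mean A of 6, from -0.090 at 6 to -2.03 at 14, and several autophagy genes are bright. It was -0.39 at a mean A of 5, so the trend did not hold for dim genes such as Atg7. Each gene was therefore set beside the genes whose mean A lay within 0.5 of its own. Map1lc3b, Gabarap and Gabarapl1 lay at percentiles 49.3, 41.0 and 51.7 of those genes, close to their medians of -1.68, -1.63 and -1.41. Map1lc3a, Atg5 and Atg7 lay low, at percentiles 14.2, 12.9 and 17.2, with medians of -0.92, -0.69 and -0.15 for genes of like A. Sqstm1 lay high, at percentile 81.1, where the median was -1.80. Atg12 and Ulk1 were at percentiles 52.1 and 61.1. The part of brightness in these results was not tested.

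**Figure D3:**
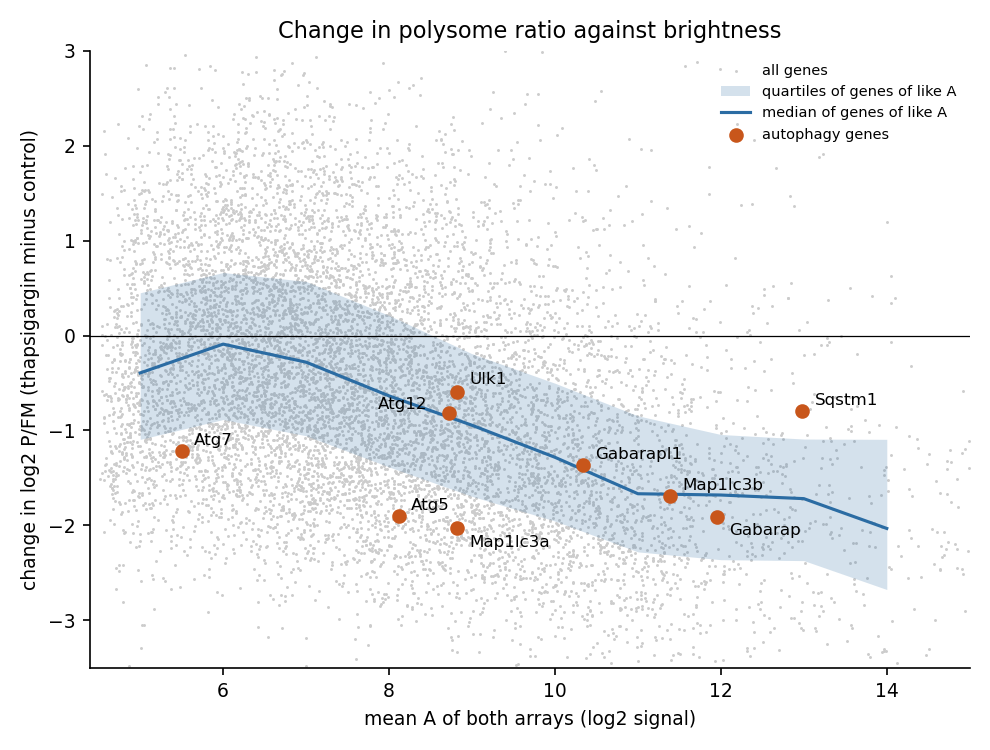
Change in log2 P/FM (thapsigargin minus control) against the mean A of both arrays for all genes (grey, points beyond the axes not drawn) and the 9 autophagy genes (orange), with the median (blue line) and quartiles (band) of genes of like A. Map1lc3a, Atg5 and Atg7 lie below the band and Sqstm1 above it, while Gabarap, Map1lc3b, Gabarapl1, Atg12 and Ulk1 lie inside it. Spike-in scaling shifts all points upward together.

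Atg7, whose control free and monosome signal was not well above background, was left out of the order in control and of the order of changes. In control, the other 8 genes were, from the highest log2 P/FM, Sqstm1, Gabarapl1, Gabarap, Atg5, Map1lc3b, Ulk1, Map1lc3a and Atg12. Neighbours differed by more than the typical SD between probes (0.32) below Sqstm1, by 0.45, below Atg5, by 0.46, and above Atg12, by 1.22. In stressed cells Sqstm1 lay 0.91 above the next gene, Ulk1. Ulk1 (0.20), Gabarapl1 (0.095) and Atg7 (-0.16) followed, with gaps among these 3 below the SD of 0.30. Map1lc3a and Atg12 were lowest, at -1.32 and -1.33. Among the changes, the gap between Atg12 and Gabarapl1, of 0.55, was the only one between neighbours above the SD of 0.36, and it separates Ulk1, Sqstm1 and Atg12 from Gabarapl1, Map1lc3b, Atg5, Gabarap and Map1lc3a.

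This split of the 8 genes was compared across the 7 ways of processing that give them different changes, leaving out those that keep their values or order by construction. Ulk1, Sqstm1 and Atg12 held the 3 highest changes in all 7. Map1lc3a was among the 3 lowest in all 7, Gabarap in 6 and Atg5 in 5. These 7 include the processing used in the text, from which the split was taken, so its agreement was fixed in advance. They also share the same arrays and are not independent. Relative to the median of all genes, over all 15 settings, Map1lc3a ranged from -1.83 to -1.03 and Atg5 from -1.45 to -1.12. Gabarap and Map1lc3b reached closer to that median, at -0.15 and -0.019, with the processed signals of the scanner software. Sqstm1 ranged most widely upward, from -1.04 to 1.32. The genes behind the median of all genes differed between settings. They numbered 10276 in the processing used in the text and 12379 with processed signals. They numbered 18181 with normexp, which gave the -1.83 and the -1.04, and without background subtraction, which gave the -1.45.

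**Figure D4:**
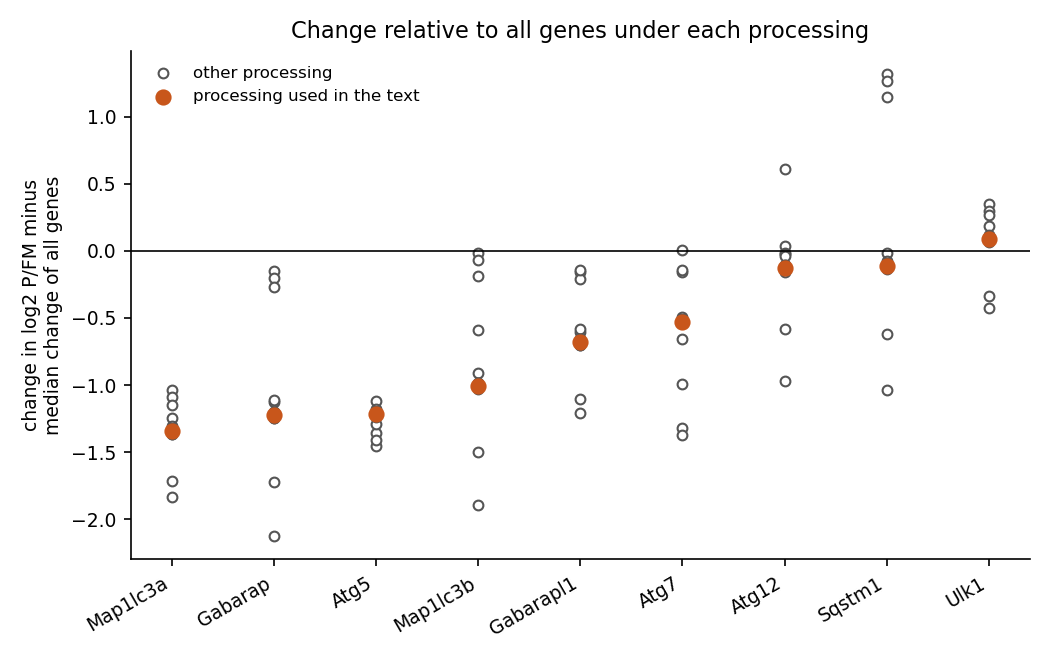
Change in log2 P/FM of each autophagy gene minus the median change of all genes (vertical axis), for the processing used in the text (orange) and each alternative (open circles). Map1lc3a and Atg5 stay below -1 throughout, whereas Sqstm1 spans -1.04 to 1.32. Spike-in scaling and centring do not move these differences. The number of genes in the median of all genes differs between settings.

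The genes whose values lay nearest to those of the extremes were found by distance over 4 values, log2 P/FM and A on each array. Nearest to Map1lc3a were Fam134a, which encodes a relative of the ER-phagy receptor Fam134b, at a distance of 0.24, then Cst6 (0.35) and Syf2 (0.37). Fam134a went from 0.79 to -1.26. Nearest to Ulk1 were Acp6 (0.12), Rab1 (0.14) and Dmap1 (0.17).

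Other genes of the pathway were taken from a list of 42 genes in 8 roles, of which 40 were found on the array and passed the filter. Of these, 15 (37.5%) were lower by 1 or more, close to the 40.2% of all genes, and 3 were higher by 1 or more, where 11.2% of all genes were. The pathway genes had a median change of -0.44 against -0.69 for all genes. The counts by role below are of few genes and are to be read against the same 40.2%. Among the lysosomal and fusion genes 6 of 8 were lower by 1 or more, from the protease Ctsl (2.68 to -0.05) to Stx17, a fusion SNARE whose change was 0.02 ± 1.13 (SD of 2 probes). Among the conjugation enzymes 2 of 3 were lower by 1 or more, with Atg10, which joins Atg12 to Atg5, at -1.57 and Atg16l1, the partner of the Atg12 and Atg5 pair, at -0.18. None of the 7 genes of the PI3K complex, which makes the lipid that marks the sac, was lower by 1 or more. Its regulatory subunit Pik3r4 was at 1.39 and Uvrag at -0.61.

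The partners of Ulk1 differed in their changes. Rb1cc1 (FIP200), the scaffold of the Ulk1 complex, went from -0.27 to 0.25, a change of 0.52 ± 0.73 (SD of 6 probes). Atg101 went from 2.84 to 0.97, and 1 of 4 was lower by 1 or more. Of the other cargo receptors, 2 of 6 were lower by 1 or more. Nbr1, which like Sqstm1 binds ubiquitinated cargo, went from -0.13 to 1.00, a change of 1.13 ± 0.16 (SD of 3 probes), and the mitophagy receptor Bnip3 went from 0.46 to -1.07. In membrane supply and expansion 4 of 6 were lower by 1 or more, between Wipi1, which binds the phosphoinositide of the early sac, at -2.40 and the lipid transfer protein Atg2b at 1.31. None of the 4 Atg4 proteases, which trim LC3, was lower by 1 or more, with Atg4c at 0.85 and Atg4d at -0.93, and of the transcription factors Tfe3 was at -0.24. A was higher by 1 or more in 6 of the 40 genes and lower by 1 or more in none, against 11.8% and 0.691% of all genes.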

How the data were processed

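Groups were taken from the labels. The authors deposited unnormalized spot and background intensity values from Feature Extraction 10.7.1.1, intensity values processed by that software, a log10 ratio, and their own log2 ratio table; per the file headers, flags mark spots well above background, saturated or outlying. No spot was saturated. Local background was subtracted with limma 3.58.1 (results below 0.5 set to 0.5) in R 4.3.3, without normalization, as the study describes, and 295 outlier spots (0.680%) were left out. Spots were averaged per probe and probes with A above 4.5 per gene name. Of the authors' control values, 99.99% equalled those computed here within 0.001. Positions are from the files (mm9, NCBI build 37); no genome of that build was used, so exons were not annotated. Names used: all 10 members, the genes with the highest and lowest change per pathway role with a probe well above background, and the 3 genes nearest to 2 members. Pathway genes were matched by RefSeq accession or name. The members, lists and thresholds were chosen with earlier results of these data known. Steps were tested on simulated data.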

Additional observations from a re-analysis of the deposited data

How the results depend on the processing

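With 1 array per condition no replicate could be left out, and 14 alternatives were run. The median change in log2 P/FM of the autophagy genes, -1.37, was -0.85 with normexp background correction, -0.46 with the scanner software's processed signals and its log ratio, -0.33 with loess, -0.76 with each array centred and 0.94 with spike-in scaling. The number lower by 1 or more, 6, was 3 under normexp, processed signals, log ratio and loess, and 0 with spike-in scaling. The background also moved: lower by 0.8 or more were 46.4% of all genes in the main processing and 12.5% under normexp. This share was 34.5% with processed signals, 32.7% with the log ratio, 27.4% with loess and 1.20% with spike-in scaling. Their control median of 1.06 was 0.33 under normexp, 0.49 with processed signals and with the log ratio, 0.53 after loess and 2.08 with spike-in scaling. The median change in A, 0.26, was -0.21 under normexp and after centring, -0.0014 with processed signals and 0.53 with spike-in scaling. With spike-in scaling the change in log2 P/FM turned direction for all 9 genes, to 0.28 for Map1lc3a, 0.62 for Map1lc3b, 0.40 for Gabarap, 0.94 for Gabarapl1, 0.41 for Atg5, 1.09 for Atg7, 1.49 for Atg12, 1.51 for Sqstm1 and 1.71 for Ulk1. Atg7 also turned with normexp, to 0.34, Sqstm1 with processed signals and log ratio, to 1.01, and loess, to 1.00, and Ulk1 with processed signals and log ratio, to 0.034, and to 0.12 with loess and 0.0088 with centring. The cause was not tested, other than that centring and spike-in scaling subtract a constant. Relative to all genes the members' median was -0.68, and ranged from -1.19 under normexp to -0.15 with processed signals. All genes were 10276 in the main processing, 18181 under normexp and 12379 with processed signals. Of the single-gene values under these alternatives, 17 of 124 changes in log2 P/FM and 15 of 106 changes in A had the opposite sign, and 51 and 35 moved by the spread between probes or more. Dim signal leaves the control value and the change of Atg7 uncertain and Gabarapl2 unmeasured.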
